A study of Homo sapiens
Mus musculus with 8 samples.

Results

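Glycolysis turns glucose into pyruvate, and lactate transport carries its end product across the cell membrane. The genes described here are the 18 mouse genes and the 18 human genes that encode the main enzymes and transporters of this route in proliferating lymphocytes. They make 36 of the 60736 genes in the count matrices (18 of 27998 mouse and 18 of 32738 human genes), and they were chosen by the role of their products: glucose transporters, the enzymes from hexokinase to pyruvate kinase, the subunits of lactate dehydrogenase and the monocarboxylate transporters. Mouse and human genes were kept apart throughout. Matching used the symbols of the deposited gene lists, and all 36 were found.

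Every library was made from one kind of sample, a mixture in equal parts of 4 established lymphocyte cell lines, with the Chromium droplet system, in which each captured messenger RNA molecule carries a unique molecular identifier (UMI) and each cell a barcode. From the mouse came EL4, a CD4 T cell lymphoma line, and IVA12, a B cell line. From human came Jurkat, a CD4 T cell leukemia line, and TALL-104, a CD8 T cell line of small cells. The mixture carried no treatment or genetic change that the labels name. The lines had been grown apart before mixing, EL4 and Jurkat in RPMI-1640, IVA12 in DMEM and TALL-104 in IMDM with interleukin-2, so line and medium cannot be told apart. The 7 libraries analysed here used 3 kits: 3p v3 (4 libraries), 5p v1 (2 libraries) and 3p v2 (1 library, with no replicate check). The 3p v3 libraries came from 2 cell preparations with 2 libraries each, replicates 1 and 3 from preparation F and replicates 2 and 4 from preparation G. The 5p v1 libraries came from preparation B and the 3p v2 library from preparation A. Each kit was thus run on its own mixtures, and kit and mixture cannot be told apart. Libraries of a preparation share 1 mixture of cells, so the spread between them is technical or comes from the sampling of cells. Comparisons of preparation G with F set 1 mixture against 1, and their p-values do not measure the spread between preparations. The other p-values rest in part on the spread between libraries of 1 mixture.

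In glycolysis, glucose enters through facilitative transporters and is trapped as glucose-6-phosphate by hexokinases. Phosphofructokinase commits the sugar to breakdown, aldolase splits it, and the enzymes from glyceraldehyde-3-phosphate dehydrogenase to pyruvate kinase return ATP and yield pyruvate. Dividing lymphocytes are known to convert much of that pyruvate to lactate through lactate dehydrogenase and to export it through the monocarboxylate transporters. Many of these genes are known targets of the hypoxia-inducible factor HIF-1 and of MYC.

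Cells were barcodes with at least 1000 UMIs, over 80% of them from 1 species and under 10% of them mitochondrial, and were assigned to lines by 10 marker genes of which none is a glycolysis gene. This kept 24714 cells: 10200 EL4, 5064 IVA12, 7257 Jurkat and 2193 TALL-104. A total of 61 barcodes occurred in more than 1 library. Library totals ran from 24790710 to 251164949 UMIs, and the median UMIs per cell of a library from 23700 to 28242 in EL4, 25296 to 33825 in IVA12, 9834 to 18945 in Jurkat and 1998 to 2787 in TALL-104. Of marker genes not used in the assignment, Cd3d was at 343 CPM or more in EL4, Jchain at 851 CPM or more in IVA12, TAL1 at 41.5 CPM or more in Jurkat and CCL5 at 1302 CPM or more in TALL-104, where CPM is UMIs scaled to 1e6 UMIs of the species. Most T cell markers listed for Jurkat did not set it apart from TALL-104: of 5 tested TAL1 was higher and CD3E lower in Jurkat, and the median log2 fold change was -0.10. Some defining markers were nearly absent: Cd4 was at most 0.19 CPM in EL4, Cd79a was at most 0.41 CPM in IVA12, CD4 was at most 3.65 CPM in Jurkat, and CD8B was at most 4.78 CPM in TALL-104, below the 2.53 to 10.2 CPM of Jurkat by the test (log2 fold change of Jurkat over TALL-104 1.93 ± 0.47). The mitochondrial limit kept 45.4% and 40.2% of Jurkat cells in the libraries of preparation G, against 96.6% and 99.3% in preparation F, and 54.2% of IVA12 cells in 3p v2. RNA released by other cells, estimated from cells of the other species, was 15.8% of the TALL-104 UMIs in 3p v3 replicate 3 and 6.91% in replicate 1, and from 0.26% to 3.77% in the other libraries. TALL-104 rested on 69 and 29 cells in 5p v1 and on 41 cells in 3p v2.

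Together the 18 genes took between 0.390% and 1.43% of the UMIs of a line in a library. In EL4 the sum was 1.05% and 0.979% in preparation F (3p v3 replicates 1 and 3), 0.761% and 0.747% in preparation G (replicates 2 and 4), 0.576% and 0.565% in 5p v1 and 0.505% in 3p v2. In IVA12 it was lower than in EL4 in every library, at 0.705% and 0.675% in preparation F, 0.498% and 0.484% in G, 0.431% and 0.390% in 5p v1 and 0.391% in 3p v2. The parts of the route did not all keep that order. From glyceraldehyde-3-phosphate dehydrogenase to pyruvate kinase, IVA12 was higher in 5p v1 (0.273% and 0.245% against 0.2001% and 0.184%) and 3p v2 (0.251% against 0.202%). For lactate dehydrogenase it was higher in 5p v1 (0.0466% and 0.0401% against 0.03301% and 0.0261%). In the other libraries these sums, and in every library those of the other parts, were higher in EL4. Jurkat had 1.43% and 1.37% in preparation F, 0.832% and 0.807% in G, 1.23% and 0.965% in 5p v1 and 0.702% in 3p v2. TALL-104 had 0.667% and 0.628% in preparation F, 0.459% and 0.484% in G, 0.746% and 0.744% in 5p v1 and 0.678% in 3p v2. The sum of all 18 genes was thus higher in F than in G in all 4 lines, and the libraries of the preparations did not overlap in any line. The ratio was 1.35 in EL4, 1.40 in IVA12, 1.71 in Jurkat and 1.37 in TALL-104. The transporter parts did not all keep that order. For glucose transporters the ratio of F to G was 0.476 in EL4, 0.767 in IVA12, 0.516 in Jurkat and 0.582 in TALL-104. For lactate transporters it was 0.841, 0.792, 1.13 and 0.651. RNA released by other cells was not subtracted from these sums. In TALL-104 it was an estimated 6.91% and 15.8% of UMIs in F and 1.99% and 3.77% in G, and its part in the TALL-104 sums was not tested. The ratio of 3p v3 to 5p v1 means was 1.55 in EL4, 1.44 in IVA12, 1.01 in Jurkat and 0.751 in TALL-104. Wilson 95% intervals of the sums of all 18 genes, for counting error only, reached at most 0.0042 percentage points to either side in EL4, 0.0079 in IVA12, 0.015 in Jurkat and 0.056 in TALL-104.

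**Figure D1:**
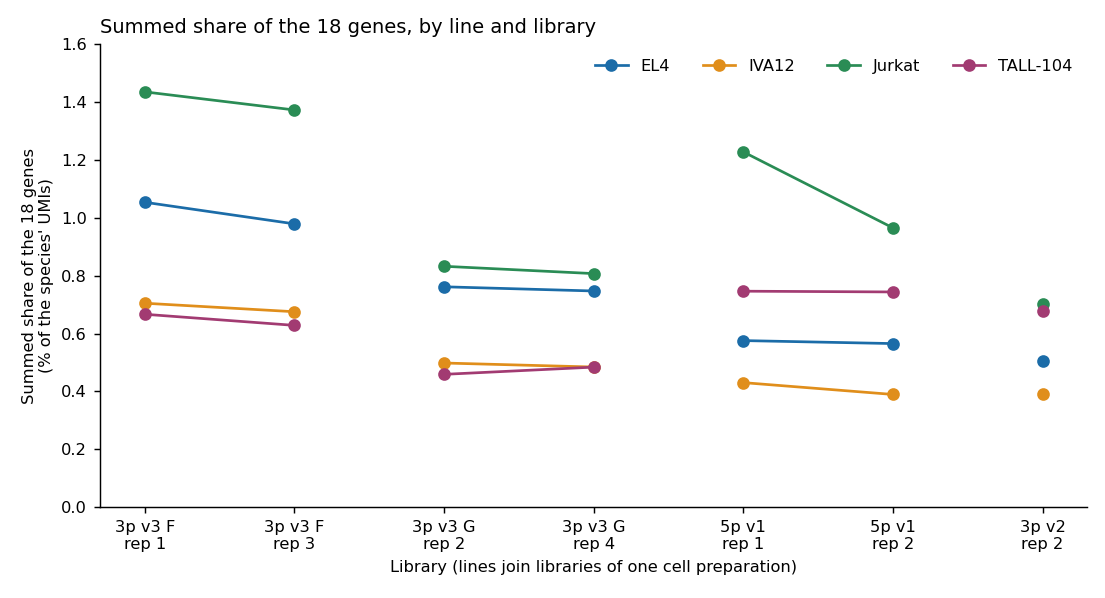
Summed level of the 18 glycolysis and lactate transport genes as a percentage of the UMIs of the species, 1 point per library, by line, kit and preparation. RNA released by other cells was not subtracted. In every line the points of preparation F lie above those of preparation G, and EL4 lies above IVA12 in each library. The sums of single parts of the route, not drawn here, did not all keep the order of EL4 and IVA12 or of F and G.

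The comparison of the mouse lines asked which of these genes differ between a T and a B cell line captured in the same droplet runs. The genes were tested with edgeR on UMIs summed per library and line, with the library as a block, and called at an adjusted p under 0.05. The largest differences were those of the transporter gene Slc2a3, the hexokinase gene Hk1 and Gpi1, all higher in EL4, while IVA12 had more Slc2a1. Of 17 genes tested, 11 were higher and 4 lower in EL4, where 77.2% of all 13078 mouse genes tested were called (39.1% higher, 38.1% lower), so a call by itself is common here. With at least 1.5-fold asked as well, 8 were higher and 3 lower, against 58.8% of all genes, 29.4% in each direction. The median log2 fold change was 0.46 over the 17 genes and 0.01 over all genes. Without the library block 7 of the 15 calls were made, and without TMM scaling, which moved the median of all genes by -0.12, the counts were 9 higher and 4 lower.

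Of the glucose transporters, Slc2a3 (GLUT3, a transporter of high affinity) ranged from 175 to 496 CPM in EL4 with a median of 260, and from 4.24 to 14.7 CPM with a median of 7.54 in IVA12. The ranges did not come near each other, and the log2 fold change was 5.27 ± 0.21 (SE, 7 libraries of each line; adjusted p = 9.73e-09), a 38.7-fold difference. With free RNA subtracted it was 5.50. Slc2a1 (GLUT1, the transporter of most dividing cells) went the other way, from 8.53 to 35.5 CPM (median 20.8) in EL4 and from 21.1 to 57.3 CPM (median 43.9) in IVA12, lower in EL4 in 7 of 7 libraries. Its log2 fold change was -0.94 ± 0.15 (adjusted p = 0.000172). Slc2a3 therefore held from 83.1% to 96.4% of the UMIs of the pair in EL4 and from 12.7% to 26.1% in IVA12.

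Among the enzymes of the upper part, the hexokinase gene Hk1 ranged from 36.6 to 88.7 CPM in EL4 (median 62.9) and from 3.31 to 9.63 CPM in IVA12 (median 6.35). Its log2 fold change was 3.23 ± 0.12 (adjusted p = 5.09e-09). Hk2, the inducible hexokinase, overlapped between the lines, from 13.9 to 47.0 CPM in EL4 and 15.3 to 93.6 CPM in IVA12, and was not called (-0.11 ± 0.16, adjusted p = 0.552). Gpi1 encodes glucose-6-phosphate isomerase, which makes fructose-6-phosphate. It ranged from 939 to 2360 CPM in EL4 (median 1332) and from 94.4 to 237 CPM in IVA12 (median 183), a log2 difference of 3.19 ± 0.17. The phosphofructokinase genes were also higher in EL4, Pfkp by 1.05 ± 0.13 and Pfkl by 0.83 ± 0.15 on the log2 scale, although their ranges overlapped across kits (Pfkp from 86.8 to 286 and 32.7 to 134 CPM, Pfkl from 22.2 to 117 and 21.2 to 45.8 CPM). Aldoa (aldolase) differed by 0.71 ± 0.11 and Tpi1 (triosephosphate isomerase) by 0.46 ± 0.14, both higher in EL4. All these calls except those of Aldoa and Tpi1 held in each of 24 alternatives.

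The enzymes of the lower part differed in both directions. Pgk1, for phosphoglycerate kinase, an ATP-making step, was higher in EL4 by 1.02 ± 0.12 (66.1 to 411 against 42.6 to 177 CPM), Gapdh by 0.41 ± 0.08 (688 to 2270 against 600 to 1820 CPM) and Pgam1 (phosphoglycerate mutase) by 0.37 ± 0.11 (307 to 888 against 304 to 527 CPM). The Pgam1 call was lost in 6 of 24 alternatives, among them no TMM scaling, 1 sum per preparation, and the fits without 3p v3 replicate 1 (0.26 ± 0.11) or replicate 3 (0.27 ± 0.12). Eno1 (enolase) and Pkm (pyruvate kinase) were lower in EL4, with log2 fold changes of -0.42 ± 0.14 and -0.62 ± 0.19 (adjusted p = 0.0191 and 0.0105). Both depended on the kit: Pkm differed by -1.42 ± 0.07 in the 5p v1 libraries alone and by -0.18 ± 0.05 in the 3p v3 libraries alone, and Eno1 by -1.0 ± 0.07 and -0.10 ± 0.06, the last not called. The Eno1 call was also lost without the 3p v2 library (-0.39 ± 0.17).

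Lactate dehydrogenase exchanges pyruvate for lactate and is built from an A and a B subunit. Both mouse lines had only the A gene at a measurable level. Ldha ranged from 261 to 1487 CPM in EL4 and from 400 to 949 CPM in IVA12 and was not called between them (0.34 ± 0.15, adjusted p = 0.0661). Within kits its direction turned, with 0.64 ± 0.07 in 3p v3 alone and -0.33 ± 0.07 in 5p v1 alone, both called. Ldhb gave from 0 to 5 UMIs per library in EL4 and from 0 to 2 in IVA12, at most 0.171 and 0.185 CPM. It did not pass the filter on low counts, so it was tested in no mouse comparison, and no fold is given. Where it gave 0 UMIs, 3 counts would set an upper limit of 0.0812 to 1.24 CPM.

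Of the lactate transporters, Slc16a1 (MCT1, which carries lactate in both directions) was higher in EL4 by 0.75 ± 0.07 (63.6 to 101 against 39.7 to 69.2 CPM, higher in 7 of 7 libraries; adjusted p = 2.63e-06). Slc16a3 (MCT4, known as an exporter of glycolytic cells) was lower, by -0.65 ± 0.19 on the log2 scale (7.06 to 44.4 against 23.3 to 48.2 CPM; adjusted p = 0.0101), a call lost without the library block and in cells thinned to 1000 UMIs (-0.41 ± 0.19). In 3p v3 its levels were close, 31.6 to 44.4 CPM in EL4 and 43.4 to 48.2 CPM in IVA12, and in 5p v1 they were 8.70 and 7.06 CPM against 28.7 and 23.3 CPM.

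**Figure D2:**
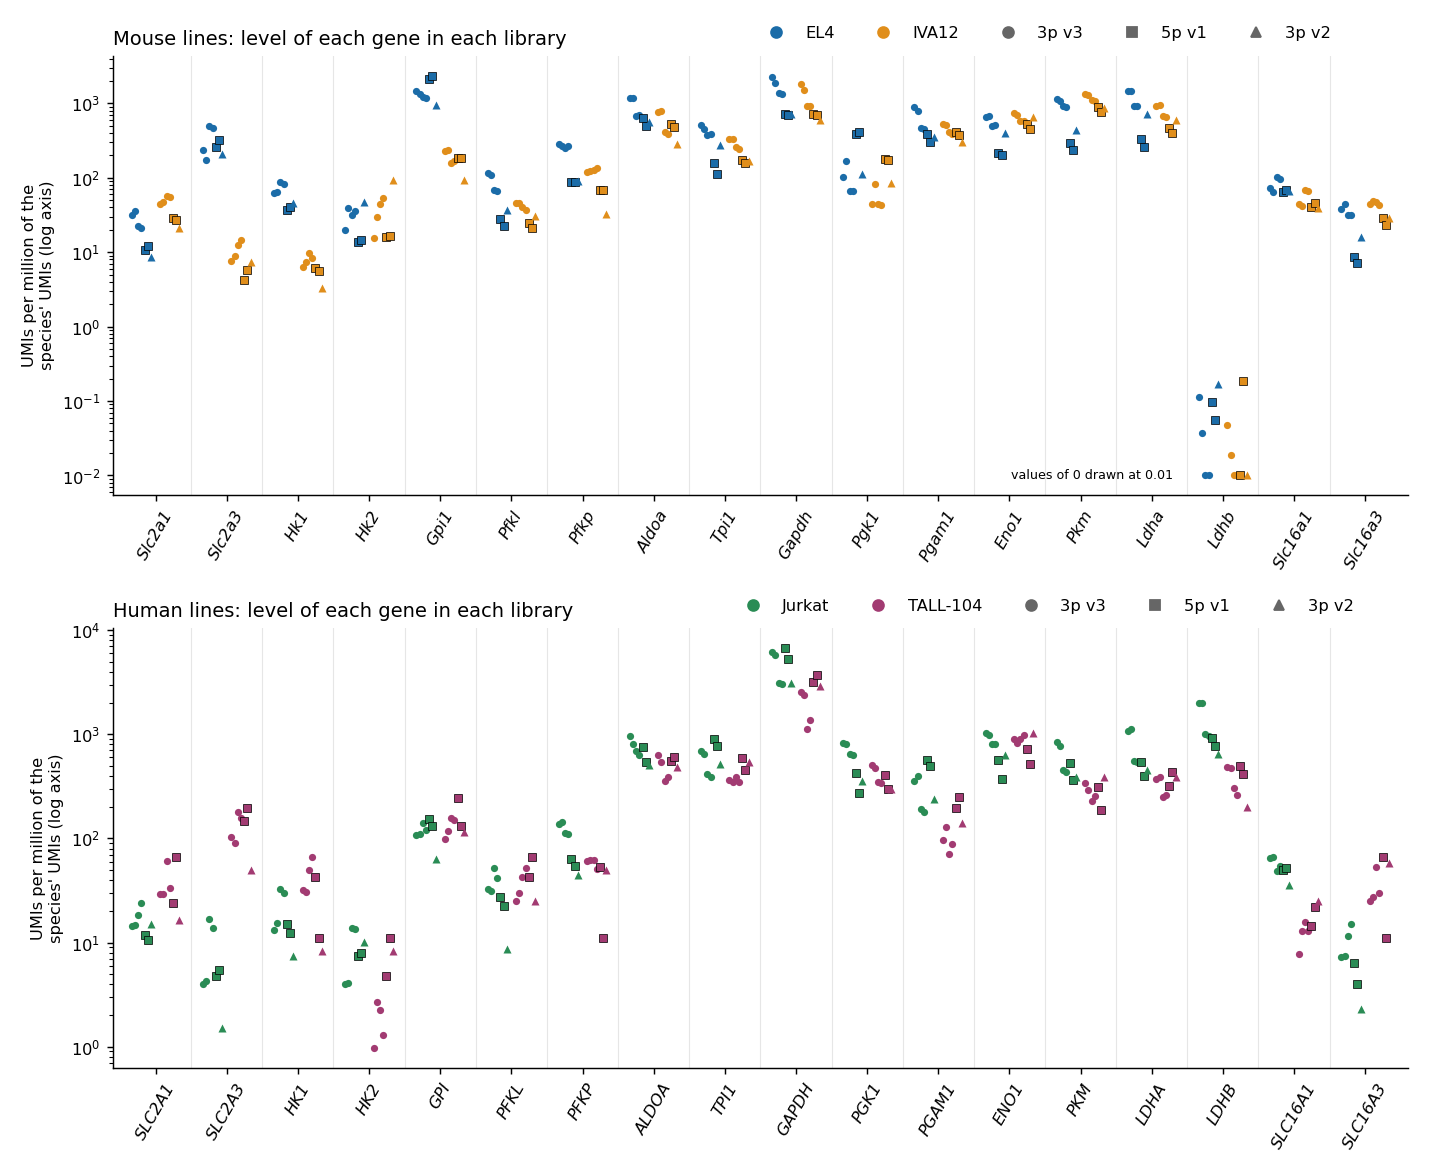
Level of each of the 18 genes in CPM on a log axis, 1 point per library, in mouse (EL4, IVA12) and human (Jurkat, TALL-104) panels. Slc2a3, Hk1 and Gpi1 of EL4 stand above IVA12 in every library, SLC2A3 and SLC16A3 of TALL-104 above Jurkat, and Ldhb of both mouse lines lies near 0, with values of 0 drawn at 0.01.

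The comparison of the human lines set a CD4 T cell leukemia line against a smaller cytotoxic T cell line. Jurkat had more of the genes for lactate dehydrogenase, for SLC16A1 and for most enzymes of the lower part, and TALL-104 had more of both glucose transporter genes, of HK1 and of SLC16A3. Of 18 genes tested, 11 were higher and 4 lower in Jurkat. Of all 11458 human genes tested, 64.6% were called, 35% higher and 29.6% lower. With at least 1.5-fold asked as well, 8 were higher and 4 lower, against 56.7% of all genes (30.7% and 26%). The median log2 fold change was 0.51 over the 18 genes and 0.10 over all genes. Free RNA made up an estimated 64% of the LDHA and 81% of the PGAM1 UMIs counted in TALL-104 in 3p v3 replicate 3. With it subtracted the counts were again 11 higher and 4 lower, and they were the same with only cells above 95% of 1 species.

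SLC2A3 ranged from 1.52 to 16.8 CPM in Jurkat (median 4.73) and from 49.8 to 197 CPM in TALL-104 (median 148), with no overlap and a log2 fold change of -4.44 ± 0.19 (adjusted p = 1.11e-18). SLC2A1 was also lower in Jurkat, at 10.5 to 23.7 CPM against 16.6 to 65.8 CPM (-1.15 ± 0.21). The hexokinase genes moved apart: HK1 was lower in Jurkat by -1.13 ± 0.19 on the log2 scale (7.35 to 32.8 against 8.29 to 66.0 CPM) and HK2 higher by 1.34 ± 0.42 (4.03 to 13.9 against 0.966 to 11 CPM; adjusted p = 0.00655). HK2 gave few UMIs in TALL-104, and its call was lost without 3p v3 replicate 4. The low end of HK1 in TALL-104 came from 3p v2, where HK1 and HK2 together gave 2 UMIs. GPI and PFKL were not called (-0.28 ± 0.15 and -0.21 ± 0.18), with 95% intervals of the log2 difference from -0.58 to 0.02 and from -0.56 to 0.15.

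PFKP, the platelet-type phosphofructokinase, was higher in Jurkat by 0.90 ± 0.17 (44.6 to 143 against 11 to 62.7 CPM). Its low end in TALL-104 came from 5p v1 replicate 2, where PFKP and PFKL together gave 7 UMIs. GAPDH ranged from 3052 to 6717 CPM in Jurkat (median 5357) and from 1115 to 3751 CPM in TALL-104 (median 2576), a log2 difference of 0.99 ± 0.15 (adjusted p = 1.33e-06), and was higher in Jurkat in 7 of 7 libraries. PGAM1 differed by 1.36 ± 0.16 (179 to 572 against 71.6 to 252 CPM) and PKM by 0.90 ± 0.16 (367 to 836 against 186 to 390 CPM). ALDOA, TPI1 and PGK1 differed by 0.48 to 0.53, and these 3 calls were lost with 1 sum per preparation. ENO1 was not called (-0.19 ± 0.15, adjusted p = 0.249).

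LDHB, whose subunit is known to favour the use of lactate, ranged from 641 to 2005 CPM in Jurkat (median 973) and from 199 to 497 CPM in TALL-104 (median 417). The ranges did not overlap, and the log2 fold change was 1.62 ± 0.17 (adjusted p = 5.89e-10). LDHA differed by 0.93 ± 0.17 (400.5 to 1128 against 248 to 439 CPM). As a share of the UMIs of both subunit genes, LDHB was 58.7% to 65.9% in Jurkat and 33.8% to 60.8% in TALL-104, with Wilson 95% intervals of at most 2.0 percentage points to either side in Jurkat and 11 in TALL-104. In 3p v3 alone the shares were 64.0% to 65.0% and 50% to 56.8%. In TALL-104 of preparation F an estimated 22.8% and 59.8% of the LDHB and 28.0% and 63.8% of the LDHA UMIs were free RNA, and with it subtracted the LDHB share in 3p v3 was 64.2% to 65.1% in Jurkat and 49.1% to 58.6% in TALL-104. The monocarboxylate transporters took opposite directions. SLC16A1 ranged from 35.7 to 66.9 CPM in Jurkat and from 7.73 to 24.9 CPM in TALL-104 (log2 difference 2.08 ± 0.21, adjusted p = 7.14e-10). SLC16A3 ranged from 2.28 to 15.1 CPM and from 11 to 66.9 CPM (-2.17 ± 0.25, adjusted p = 9.78e-09). The low end of SLC16A3 in TALL-104 came from 5p v1 replicate 2, where both transporter genes together gave 3 UMIs. In TALL-104 of 3p v3 replicate 3 the free RNA estimate exceeded the whole SLC16A1 count (121%), so the low level of that gene in TALL-104 is at or below background there.

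The preparations of the 3p v3 kit were compared next, G against F, 2 libraries against 2 in each line, with the kit held constant. Most of the enzyme genes were lower in preparation G in EL4, IVA12 and Jurkat, while SLC2A3 or Slc2a3 was higher in G in all 4 lines. That call was lost in 0 of the 16 alternatives in which SLC2A3 was tested in Jurkat, 1 of 19 in EL4 (a mitochondrial limit of 5%) and 9 of 16 in TALL-104. In IVA12 it was lost in 2 of 18, at that limit and without replicate 4 (0.33 ± 0.16), and it turned in thinned cells. In Jurkat the gene passed the filter on low counts neither at that limit nor in cells thinned to 1000 UMIs, and has no value there. Without TMM scaling the median of all genes moved by 0.26 to 0.41 on the log2 scale towards G. Directions and sizes are thus relative to the other genes of the line. CPM are not TMM scaled, so the log2 fold changes of G over F lie below those that the CPM beside them give. Without TMM scaling the median over the glycolysis genes was -0.38 in EL4, -0.27 in IVA12, -0.35 in Jurkat and 0.04 in TALL-104. The preparations differed in other ways that move with these results. The limit on mitochondrial UMIs kept fewer of the Jurkat cells in G, as given above, and 62.7% and 48.0% of TALL-104 cells in G against 78.6% and 99.6% in F. The median mitochondrial share of the cells kept was 8.58% to 8.69% in Jurkat of G and 4.87% to 6.28% in F. The median UMIs per Jurkat cell were 10145 and 9834 in G and 17729 and 17941 in F. The part of these differences in the results was not tested.

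In EL4, 13 of 17 genes tested were lower and 1 was higher in preparation G, with 57.2% of all 11979 genes called (27.1% higher, 30.1% lower) and a median log2 fold change of -0.74 over the genes against -0.02 over all. With at least 1.5-fold asked, 12 were lower and 1 higher, against 16% and 14.8% of all genes. Without TMM scaling 12 were lower and 3 higher, while the share of higher calls among all genes went from 47.3% to 77.1%. Ldha was 1487 and 1460 CPM in F and 933 and 914 CPM in G, a log2 fold change of -1.04 ± 0.06 (adjusted p = 0.000166). Aldoa fell from 1176 and 1191 to 682 and 689 CPM (-1.15 ± 0.07) and Pgam1 from 888 and 784 to 468 and 450 CPM (-1.23 ± 0.08). Pfkl went from 117 and 108 to 67.4 and 67.0 CPM (-1.11 ± 0.06). In each the libraries of a preparation lay close together and far from those of the other. Pgk1 had a wider spread within F, at 102 and 167 CPM against 66.9 and 66.1 CPM in G (-1.39 ± 0.23). Slc2a1 was 31.5 and 35.5 CPM in F and 22.3 and 20.8 CPM in G (-1.01 ± 0.10), and Slc2a3 was 233 and 175 CPM in F and 496 and 460 CPM in G (0.87 ± 0.13, adjusted p = 0.00154), so that the glucose transporter genes moved apart. Gapdh, Gpi1, Eno1, Pkm, Tpi1, Pfkp and Slc16a3 fell by 0.45 to 0.98, and Hk1, Hk2 and Slc16a1 were not called. At a mitochondrial limit of 5%, 9 genes were called, all lower, where 11.7% of all genes were called, 1210 against 6850.

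In IVA12, 12 of 17 genes were lower and 3 higher in G. Of all 11664 genes, 67.8% were called, 33.3% higher and 34.6% lower, and the medians were -0.52 over the genes and -0.01 over all. With at least 1.5-fold asked, 7 were lower and 1 higher, against 42.9% of all genes (21.8% and 21.1%). Without TMM scaling 9 were lower and 5 higher, and the higher share of all calls went from 49.1% to 65.3%. Aldoa was 772 and 781 CPM in F and 407 and 386 CPM in G (-1.23 ± 0.06, adjusted p = 3.87e-06), and Gapdh was 1820 and 1517 CPM in F and 916 and 910 CPM in G (-1.13 ± 0.09). Gpi1 fell by 0.78 ± 0.06, Ldha by 0.74 ± 0.06, and Tpi1, Pgam1, Eno1 and Pkm by 0.52 to 0.66. Pgk1 fell by 0.84 ± 0.25, Pfkl by 0.52 ± 0.07 and Slc16a3 by 0.31 ± 0.07, and Pfkp by 0.17 ± 0.06, which reversed to 0.09 without TMM scaling. Higher in G were Hk2 (15.3 and 29.9 to 44.3 and 53.0 CPM, 0.80 ± 0.25), Slc2a3 (7.54 and 8.78 to 12.5 and 14.7 CPM, 0.48 ± 0.13, but -0.13 in cells thinned to 1000 UMIs) and Slc16a1 (44.3 and 41.6 to 69.2 and 66.4 CPM, 0.40 ± 0.06). Slc2a1 was not called (0.05 ± 0.06, adjusted p = 0.553). EL4 markers in IVA12 were also lower in G, 4 of 5 tested with a median of -1.44, as they were in EL4 itself (4 of 5, median -1.28). With free RNA subtracted 11 glycolysis genes were lower and 3 higher.

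In Jurkat, 11 of 18 genes were lower and 4 higher in G. Of all 13413 genes, 55.9% were called, 26.2% higher and 29.8% lower. The medians were -0.75 and 0.03, and with at least 1.5-fold asked 11 were lower and 3 higher, against 23.2% and 20.7% of all genes. Without TMM scaling 11 were lower and 6 higher, and the higher share of all calls went from 46.8% to 70.8%. Both lactate dehydrogenase genes were among the largest falls. LDHB was 2004 and 2005 CPM in F and 1013 and 973 CPM in G (-1.42 ± 0.10, adjusted p = 1.35e-08), and LDHA was 1081 and 1128 CPM in F and 550 and 539 CPM in G (-1.43 ± 0.10). GAPDH went from 6166 and 5753 to 3112 and 3052 CPM (-1.36 ± 0.10). PGAM1 fell by 1.44 ± 0.11, PKM by 1.27 ± 0.10, TPI1 by 1.14 ± 0.10, and ALDOA, PGK1, PFKP, ENO1 and SLC16A1 by 0.72 to 0.83. Of the genes higher in G, SLC2A3 was 4.0 and 4.29 CPM in F and 16.8 and 13.7 CPM in G (1.42 ± 0.22), HK2 was 4.03 and 4.04 CPM in F and 13.9 and 13.4 CPM in G (1.34 ± 0.23), and HK1 was 13.1 and 15.5 CPM in F and 32.8 and 29.6 CPM in G (0.69 ± 0.15). SLC16A3 was higher by 0.53 ± 0.21, a call that 11 of 18 alternatives lost. SLC2A1 (0.19), GPI (-0.18) and PFKL (0.12) were not called. At a mitochondrial limit of 5%, 7 genes were called, all lower, where 21.8% of all 9528 genes were called. The summed level of the genes in single Jurkat cells ran from a 10th percentile of 0.413% and 0.398% of UMIs to a 90th of 1.52% and 1.55% in G, and from 1.12% and 1.06% to 1.72% and 1.62% in F, a wider range in G. In EL4 and IVA12 the range was wider in F. It ran in EL4 from 0.718% and 0.651% to 1.70% and 1.47% in F and from 0.564% and 0.595% to 0.891% and 0.873% in G, and in IVA12 from 0.506% and 0.481% to 1.12% and 1.06% in F and from 0.349% and 0.356% to 0.621% and 0.593% in G.

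In TALL-104, 7 of 17 genes tested were lower and 1 higher in G, with 34.8% of all 8256 genes called (17.3% higher, 17.5% lower) and medians of -0.31 and 0.01. Without TMM scaling 6 were lower and 4 higher, and the higher share of all calls went from 49.7% to 80.9%. GAPDH was 2576 and 2393 CPM in F and 1115 and 1365 CPM in G (-1.36 ± 0.15), LDHB was 488 and 479 against 307 and 262 CPM (-1.13 ± 0.14), and ALDOA 628 and 548 against 358 and 387 CPM (-1.01 ± 0.14). LDHA, PGK1, PGAM1 and PKM fell by 0.75 to 0.93, and SLC2A3 was higher by 0.46 ± 0.17. Without replicate 2, 3 or 4 the SLC2A3 value was 0.35 ± 0.21, 0.27 ± 0.20 or 0.57 ± 0.23 and not called. These calls were the least stable of the preparation comparisons. Free RNA was 6.91% and 15.8% of TALL-104 UMIs in F and 1.99% and 3.77% in G. With free RNA subtracted 3 genes were called, ALDOA, GAPDH and PGK1, all lower, and PGAM1 turned to 0.25. With cells over 95% of 1 species 0 were called by edgeR, with LDHB lowest at -1.70 ± 0.57. In that fit 5314 genes were tested, against 8256 above. The share of all genes called is not given for either fit, so these counts show nothing particular to the glycolysis genes. Without 3p v3 replicate 4 the count was 5.

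**Figure D3:**
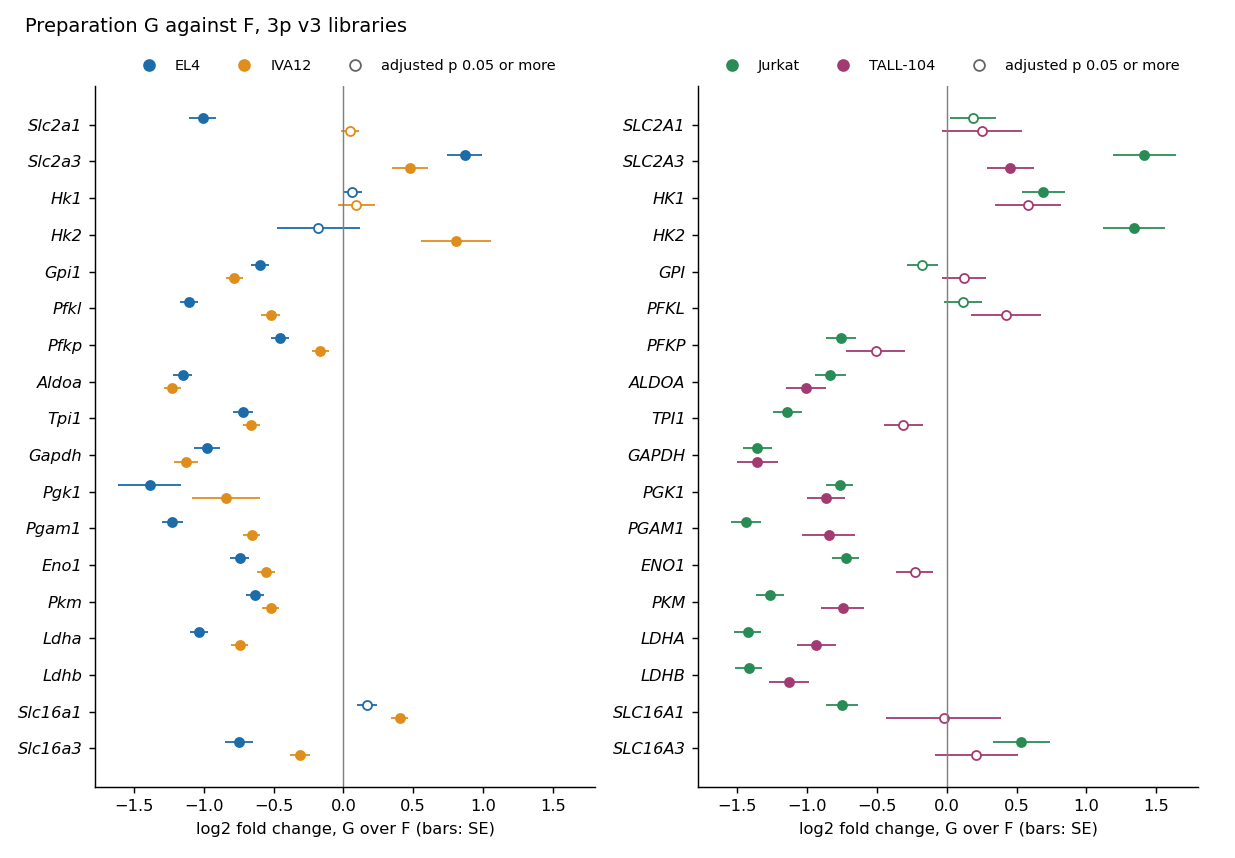
Log2 fold change of preparation G over F for each gene in the 4 lines, with bars of 1 SE; filled points were called at an adjusted p under 0.05. Most enzyme genes lie below 0 in EL4, IVA12 and Jurkat, and the Slc2a3 and SLC2A3 points lie above 0 in all 4 lines.

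The difference between the preparation effects of 2 lines was tested as an interaction. Between EL4 and IVA12 it was called for 9 of 17 genes, 8 of them with a larger fall or smaller rise in EL4, where 14.5% of all 13047 genes were called (7.79% higher, 6.69% lower). Without TMM scaling 7 were lower and 2 higher, and the higher share of all calls went from 53.8% to 70.7%. Slc2a1 (-1.02 ± 0.09, adjusted p = 0.000182) and Hk2 (-0.98 ± 0.10) had the largest differences: Slc2a1 was lower in G in EL4 and near 0 in IVA12, and Hk2 was higher in G in IVA12 and not called in EL4. Hk2 rested on single libraries within the lines. In EL4 it was 19.8 and 38.7 CPM in F and 31.4 and 35.7 CPM in G, so that its effect was -0.54 ± 0.08 without replicate 1 and 0.42 ± 0.09 without replicate 3, both called. In IVA12 its call was lost without replicate 4 (0.67 ± 0.31), at a mitochondrial limit of 5% and with DESeq2. The Hk2 interaction itself stayed called without any 1 library, at -1.10 to -0.91, and was lost at a 5% limit and in thinned cells. Aldoa, Tpi1, Eno1 and Pkm were not called, with differences of -0.15 to 0.11. The count was 5 without 3p v3 replicate 2, 4 without replicate 4, 1 with cells thinned to 1000 UMIs and 0 by edgeR at a mitochondrial limit of 5%, where 0.255% of all genes were called. Between Jurkat and TALL-104, 6 of 18 genes were called, SLC2A3, ALDOA and PGK1 higher in Jurkat and TPI1, ENO1 and PKM lower, where 14.1% of all 10996 genes were called (7.17% higher, 6.93% lower). Without TMM scaling the split was 1 higher and 5 lower, and the higher share of all calls went from 50.8% to 31.8%. SLC2A3 differed by 1.17 ± 0.28 and TPI1 by -0.62 ± 0.11. The count was 2 without 3p v3 replicate 4 or with free RNA subtracted, and 0 by edgeR with cells over 95% of 1 species.

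The kits were compared as 3p v3 against 5p v1, which count the same messengers from opposite ends. Gapdh, Ldha, Pgk1 and Pgam1 and their human counterparts have near-identical pseudogene copies, so their reads may be split or lost, and to an unequal extent at the ends. Whether this had a part in the values below was not tested. The comparison set the 4 libraries of 3p v3, from both preparations, against the 2 of 5p v1. In EL4, 11 of 17 genes were higher and 2 lower in 3p v3. Of all 12141 genes, 36.8% were called (19.3% higher, 17.5% lower), and the medians were 1.24 and 0.06. All 13 reached 1.5-fold, as did 33.5% of all genes (17.9% higher, 15.6% lower). Ldha was 914 to 1487 CPM in 3p v3 and 330 and 261 CPM in 5p v1 (log2 fold change 1.99 ± 0.41, adjusted p = 0.00984), and Pkm was 894 to 1127 CPM against 296 and 238 CPM (1.86 ± 0.29). Slc16a3 differed by 2.17 ± 0.32 (31.6 to 44.4 against 8.70 and 7.06 CPM), Pfkl by 1.82 ± 0.42, Tpi1 by 1.65 ± 0.32 and Pfkp by 1.56 ± 0.21. Pgk1 and Gpi1 went the other way. Pgk1 was 66.1 to 167 CPM in 3p v3 and 386 and 411 CPM in 5p v1 (-1.99 ± 0.47), and Gpi1 was 1171 to 1463 against 2128 and 2360 CPM (-0.85 ± 0.24). The 3p v2 library, of another kit that counts from the 3′ end, had 722 CPM of Ldha, 113 CPM of Pgk1 and 939 CPM of Gpi1. Without 5p v1 replicate 1 the count of calls was 4 and without replicate 2 it was 1 (Pfkp), in fits where the lone 5p v1 library is assumed to vary like the others. The log2 fold change was then 2.21 and 1.80 for Ldha and -0.89 and -0.81 for Gpi1, and without replicate 2 it was -1.98 for Pgk1.

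In IVA12, 4 of 17 genes were higher (Slc2a1, Slc2a3, Pfkp and Slc16a3) and 1 lower (Pgk1), where 9.16% of all 11964 genes were called (4.38% higher, 4.78% lower) and the medians were 0.85 and 0.02. All 5 reached 1.5-fold, as did 9.14% of all genes (4.38% higher, 4.76% lower). Pgk1 was 42.6 to 83.4 CPM in 3p v3 and 177 and 174 CPM in 5p v1 (-1.65 ± 0.35, adjusted p = 0.0337). EL4 markers were higher in IVA12 of 3p v3, 3 of 5 tested, and with free RNA subtracted the Slc2a3 call was lost (0.87, adjusted p = 0.168). DESeq2 called 9 genes, with the share of all genes not given here. With preparation F or G of 3p v3 alone 16 of 17 genes were called each time, 15 higher and 1 lower with F and 13 higher and 3 lower with G, against 60% of all genes with F (29.5% higher, 30.5% lower) and 67.3% with G (34.6% and 32.7%). Gpi1 (0.50 with F, -0.28 with G) and Aldoa (0.77 with F, -0.45 with G) took opposite directions. The count was 0 by edgeR without either 5p v1 library, again with the lone library assumed to vary like the others, and the log2 fold change was then -1.61 and -1.67 for Pgk1 and 0.93 and 0.80 for Slc2a1. The count was 2 without 3p v3 replicate 2 or 4 and 3 without replicate 3.

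In Jurkat edgeR called 0 of 18 genes, where 14.9% of all 14099 genes were called (7.21% higher, 7.66% lower). DESeq2 called 3, with the share of all genes not given here. At an unadjusted p under 0.05 were 6 of the 18, all higher in 3p v3, and 32.9% of all genes. The preparations again lay apart. Against 5p v1, preparation F alone gave 11 genes higher and 2 lower and preparation G alone 9 higher and 4 lower, where 59.6% (30% higher, 29.6% lower) and 65.4% (32.2% and 33.2%) of all genes were called. GAPDH differed by 0.13 ± 0.18 with F and by -1.18 ± 0.11 with G, LDHA by 1.37 ± 0.17 and -0.01 ± 0.12, LDHB by 1.39 ± 0.16 and 0.01 ± 0.11, and PGAM1 by -0.36 ± 0.14 and -1.75 ± 0.12. PGK1 was higher in 3p v3 with either, by 1.37 ± 0.19 and 0.65 ± 0.14, unlike the mouse Pgk1, which was lower in 3p v3 in both mouse lines. In TALL-104 edgeR called 0 of 16 genes tested and DESeq2 also 0, with 5.05% of all 7718 genes called (2.71% higher, 2.35% lower). At an unadjusted p under 0.05 was 1 of the 16, against 22.1% of all genes. Without TMM scaling the higher share of all calls there went from 53.6% to 41.6%. PGAM1 had the largest difference, at 71.6 to 129 CPM in 3p v3 and 196 and 252 CPM in 5p v1 (-1.07 ± 0.36, adjusted p = 0.0912). With preparation F alone 2 genes of TALL-104 were higher and 0 lower in 3p v3, where 15.9% of all genes were called (8.93% higher, 6.98% lower). With G alone 1 was higher and 6 were lower, where 37.1% were called (18.1% and 19%).

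**Figure D4:**
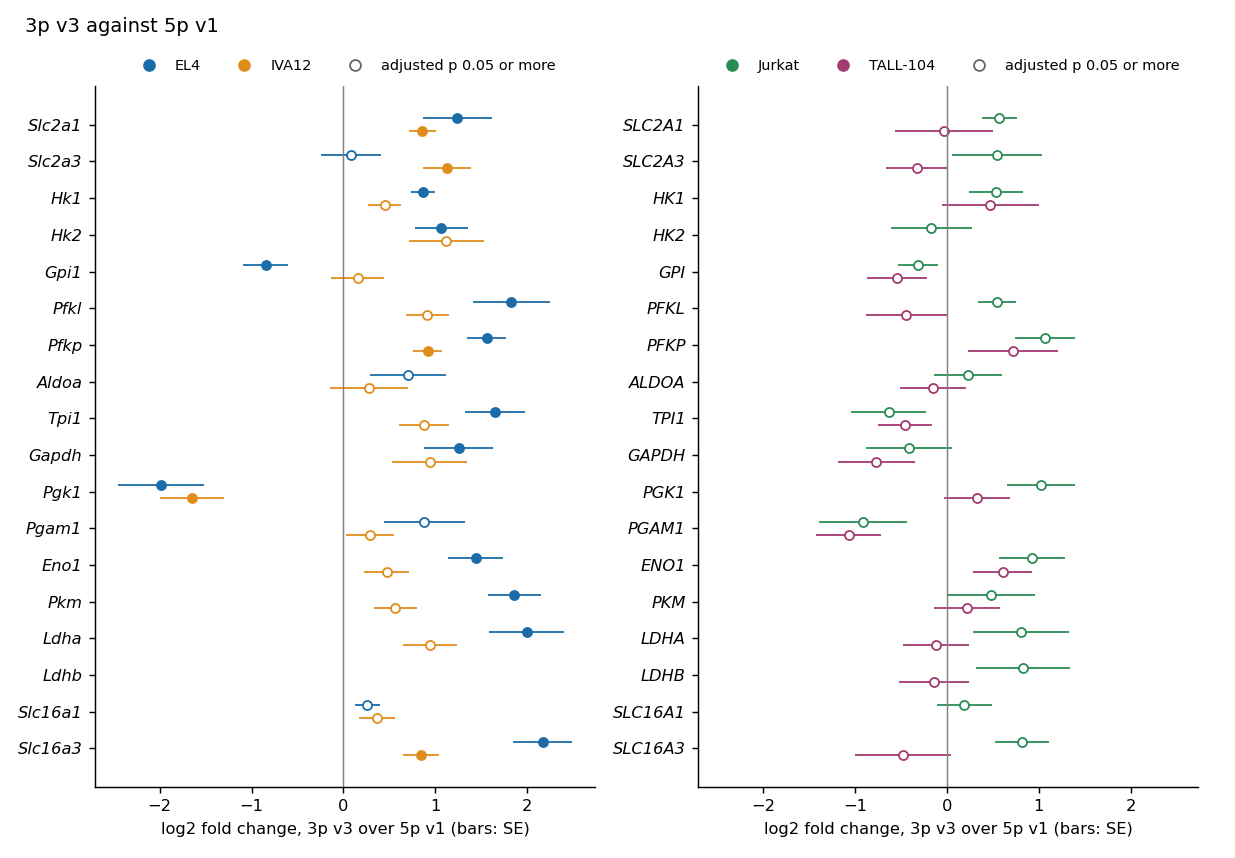
Log2 fold change of 3p v3 over 5p v1 for each gene in the 4 lines, with bars of 1 SE; filled points were called at an adjusted p under 0.05, in EL4 and IVA12 only. Pgk1 of both mouse lines lies below 0 and PGK1 of Jurkat above 0.

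The kit effect itself differed between the mouse lines for 12 of 17 genes, 10 of them higher and 2 lower in EL4, against 30.3% of all 13086 genes (17% higher, 13.2% lower). Without TMM scaling 11 were higher and 2 lower, and the higher share of all calls went from 56.3% to 70.4%. Slc16a3 (1.27 ± 0.18), Pkm (1.26 ± 0.10, adjusted p = 5.73e-05), Ldha (0.99 ± 0.13) and Eno1 (0.92 ± 0.12) had the larger rise in EL4, and Slc2a3 (-1.15 ± 0.22) and Gpi1 (-1.0 ± 0.11) the smaller or opposite one. The count was 7 without either 5p v1 library. Between Jurkat and TALL-104 edgeR called 0 of 18 and DESeq2 1, where edgeR called 1.25% of all 11371 genes. At an unadjusted p under 0.05 were 3 of the 18, against 14.2% of all genes. Without TMM scaling 1 was called, higher in Jurkat, and the higher share of all calls went from 45.8% to 82.9%.

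Other genes of the route were examined as lists. Of all genes tested, 39.1% were called higher and 38.1% lower in EL4 than in IVA12, and 35% higher and 29.6% lower in Jurkat than in TALL-104. Counts near these shares show nothing particular to a list. The isoenzymes and transporters that are less used in lymphocytes were mostly too low to test: 7 of 19 passed the filter between EL4 and IVA12, 4 of them lower in EL4 and 0 higher, among them Pgam2 (log2 fold change -5.66), the muscle form of phosphoglycerate mutase, Aldoc (-2.51) and Eno3 (-1.48). Of 17 regulators, pyruvate-entry genes and transporter chaperones tested, 8 were higher and 5 lower in EL4. The chaperone gene Emb, whose product brings monocarboxylate transporters to the membrane, differed by 5.99 ± 0.26, Hif1a by 2.89 ± 0.17 and Tigar, a phosphatase that lowers glycolytic flux, by -2.49 ± 0.18. Of 6 genes of the pentose phosphate pathway, which branches from glucose-6-phosphate, 4 were higher and 1 lower in EL4, with Rpia at -1.23, Taldo1 at 0.88 and Pgd at 0.78. Between the human lines, 5 of 17 regulators were higher and 7 lower in Jurkat, with PFKFB4 at 3.06, MYC at 1.93 and PFKFB3 at -1.66. The pentose phosphate genes had 3 higher and 2 lower of 6 (RPE 1.23, RPIA 1.06, PGLS -0.79). Proliferation markers were higher in Jurkat in 10 of 10, and between EL4 and IVA12 4 of 10 were higher and 3 lower.

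Between preparations the same lists moved unequally. Of all genes, 26.2% were called higher and 29.8% lower in G in Jurkat, 27.1% and 30.1% in EL4, 33.3% and 34.6% in IVA12, and 17.3% and 17.5% in TALL-104. Between kits in EL4, 19.3% were higher and 17.5% lower in 3p v3. In Jurkat 6 of 6 pentose phosphate genes were lower in G, with a median of -0.97 on the log2 scale and TALDO1 at -1.51, and 8 of 10 proliferation markers were lower (1 higher). PFKFB4 was higher by 2.66, MYC lower by -1.76 and C12orf5, the human TIGAR gene, by -1.74. Of 17 regulators 6 were higher and 8 lower there. In EL4, 3 of 6 pentose phosphate genes were lower and 0 higher (Taldo1 -1.0), 3 of 17 regulators were higher and 8 lower, and Bsg, the chaperone basigin, was at -0.87. In IVA12, 3 of 17 regulators were higher and 9 lower (Pfkfb3 0.95, Pdhb -0.83, Pdk1 0.66), and 2 of 6 pentose phosphate genes were higher and 3 lower (Taldo1 -1.19). In TALL-104, 1 of 15 regulators was higher and 5 lower, and of 5 pentose phosphate genes 0 were higher and 2 lower. Proliferation markers were lower in G in 5 of 10 in EL4 (1 higher) and in 8 of 10 in IVA12 (2 higher), while their summed level was higher in G, at 2533 and 2549 against 2457 and 2367 CPM in EL4 and at 2244 and 2306 against 2061 and 1975 CPM in IVA12. Between kits in EL4, 8 of 10 proliferation markers and 3 of 6 pentose phosphate genes were higher in 3p v3 (0 and 1 lower), among them Mcm3 at 2.44, Pgd at 1.27 and Tkt at 1.19, and Mpc1, a subunit of the mitochondrial pyruvate carrier, was at -1.63.

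A list of 16 other genes that HIF-1 is known to induce, none of them a glycolysis gene, was split between the lines: 6 of 15 tested were higher and 7 lower in EL4 than in IVA12 (Adm 4.19, Egln3 3.89, Ankrd37 -3.02), and 4 of 13 were higher and 5 lower in Jurkat than in TALL-104 (EGLN3 -2.81, NDRG1 -2.71, BNIP3 1.92). The list moved with preparation in a way that differed between lines. In EL4, 13 of 16 were lower and 1 higher in G, with Adm, for the peptide adrenomedullin, at -4.66, Bnip3 at -2.28 and Ndrg1 at -2.12. In IVA12, 8 of 15 were lower and 2 higher (Adm -1.81, Vegfa 1.08). In Jurkat, 7 of 13 were higher and 1 lower (VEGFA 3.54, NDRG1 1.28, HIGD1A -1.90), and in TALL-104 2 of 11 were higher and 2 lower. In the interaction, 12 of 16 were lower and 0 higher in EL4 relative to IVA12, and 6 of 13 were higher and 0 lower in Jurkat relative to TALL-104. The background shares are those given above for each comparison.

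Single cells were therefore described by the UMIs of this list, in cells with at least 5000 UMIs of their species, each thinned to 5000. In EL4 of preparation F, 13.6% and 13.5% of cells had at least 10 UMIs of the list, with exact 95% intervals of 11.8% to 15.4% and 12.2% to 14.8%, which cover the sampling of cells and not the spread between preparations. The share was 1.07% and 1.29% in G, 3.34% and 3.60% in 5p v1 and 1.34% in 3p v2. Without thinning, at the same share of UMIs, it was 12.9% and 12.1% in F, 0.356% and 0.482% in G, 1.03% and 1.35% in 5p v1 and 0.224% in 3p v2, so outside F the share moved by more than 1.5 times. The limit cuts a continuous range, and 40 and 102 cells of F lay at 9 or 10 UMIs, beside 197 and 363 cells with at least 10. In G the numbers were 13 and 16 cells beside 6 and 16, and in 5p v1 52 and 27 beside 42 and 24. In IVA12 of G they were 20 and 29 beside 20 and 38. Outside F the class thus lay close to the limit. In IVA12 the share was 6.90% and 8.97% in F, 5.04% and 4.87% in G and at most 2.29% in the other kits, and in Jurkat at most 2.13% in any library. Without thinning IVA12 had 5.17% and 7.46% in F, 2.27% and 2.69% in G and at most 1.12% in the other kits, and Jurkat at most 1.87%. Shallower cells were left out, 403 and 1222 EL4 cells in F and 68 and 86 in G.

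The EL4 cells of F that were rich in HIF-1 targets held a median of 96 and 92 glycolysis UMIs in 5000, and the rest 44 and 42. In the 2 libraries of F the median was nearly flat over most cells, at 44 and 41 UMIs in cells with 0 to 2 UMIs of the list, the same at 3 to 5 and 47 and 46 at 6 to 9. It was 82 and 76 at 10 to 14 UMIs and 110 and 103 at 15 or more. In G it was 45.5 and 44.5 UMIs in the few cells above the limit (6 and 16) and 37 in the rest of both libraries. In 5p v1 the rich cells had 31.5 and 26 UMIs and the rest 28 in each, so the classes lay close together there. IVA12 of F had 61 and 60 UMIs in rich cells and 31 and 30 in the rest, and IVA12 of G 29.5 and 34 against 23 in each. Jurkat had few rich cells, but its median rose below the limit in G. In replicate 4 of G it was 32.5, 42 and 77 at 0 to 2, 3 to 5 and 6 to 9 UMIs of the list (29 cells in the last). In replicate 2 it was 35 and 41 at 0 to 2 and 3 to 5. Jurkat of F was flat, at 71, 70 and 70.5 in replicate 1 and 68, 68 and 70 in replicate 3. The points of a library share its depth and free RNA, and the relation is a description of these cells. The fold of rich over other cells was taken in libraries with at least 20 rich cells. In the EL4 libraries of F it was 5.20 and 6.20 for Slc2a1, 4.04 and 2.94 for Slc16a3, 1.90 and 2.05 for Pfkp, 2.31 and 2.23 for Ldha and 1.04 and 0.875 for Slc16a1. In EL4 of 5p v1 it was 1.17 and 1.08 for Ldha and 2.17 and 1.29 for Pfkp, and the rich cells of replicate 1 held only 3 UMIs of Slc2a1 and 2 of Slc16a3. In IVA12 the fold ranged over the 4 libraries of 3p v3 from 2.52 to 3.52 for Slc2a1, from 1.98 to 2.92 for Aldoa and from 0.698 to 0.920 for Slc16a1. In 5p v1 replicate 1 it was 1.55 for Aldoa, and the rich cells held only 5 UMIs of Slc2a1 and 3 of Slc16a1. The median over 14 of the genes was 2.31 and 2.23 in EL4 of F and 1.18 and 1.02 in EL4 of 5p v1, and in IVA12 it was 1.79 and 1.98 in F, 1.51 and 1.53 in G and 1.27 in 5p v1 replicate 1. Over all genes, the median of each gene's median fold was 0.995 in EL4 and 0.965 in IVA12. At least 1.5-fold in every such library was reached by 0 of 14 genes in 4 EL4 libraries, where 0.343% of all genes did, and by 3 of 14 in 5 IVA12 libraries, where 0.181% did.

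Leaving out the cells rich in HIF-1 targets changed the size of the preparation effect in EL4 but not its direction in any of the genes called. These cells were 13.6% and 13.5% of the EL4 cells in F and 1.07% and 1.29% in G, and held more glycolysis UMIs. A smaller fall was therefore set in advance by the filter, and what brought about the preparation effect was not tested. Slc2a1 went from -0.99 ± 0.10 in cells with at least 5000 UMIs to -0.37 ± 0.11, Slc16a3 from -0.75 ± 0.10 to -0.39 ± 0.10, Pfkl from -1.10 ± 0.06 to -0.78 ± 0.06 and Ldha from -1.03 ± 0.06 to -0.83 ± 0.06. In all, 13 genes were then lower and 2 higher in G, where 57.7% of all 11856 genes were called (27.3% higher, 30.4% lower). In IVA12, 11 were lower and 3 higher, where 67.6% of all 11585 genes were called (33.2% higher, 34.3% lower). In Jurkat 11 were lower and 3 higher, where 54.8% of all 13284 genes were called (25.5% higher, 29.4% lower). The filter left out only 0 and 2 Jurkat cells in F and 1 and 6 in G, so little change in Jurkat was set in advance.

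**Figure D5:**
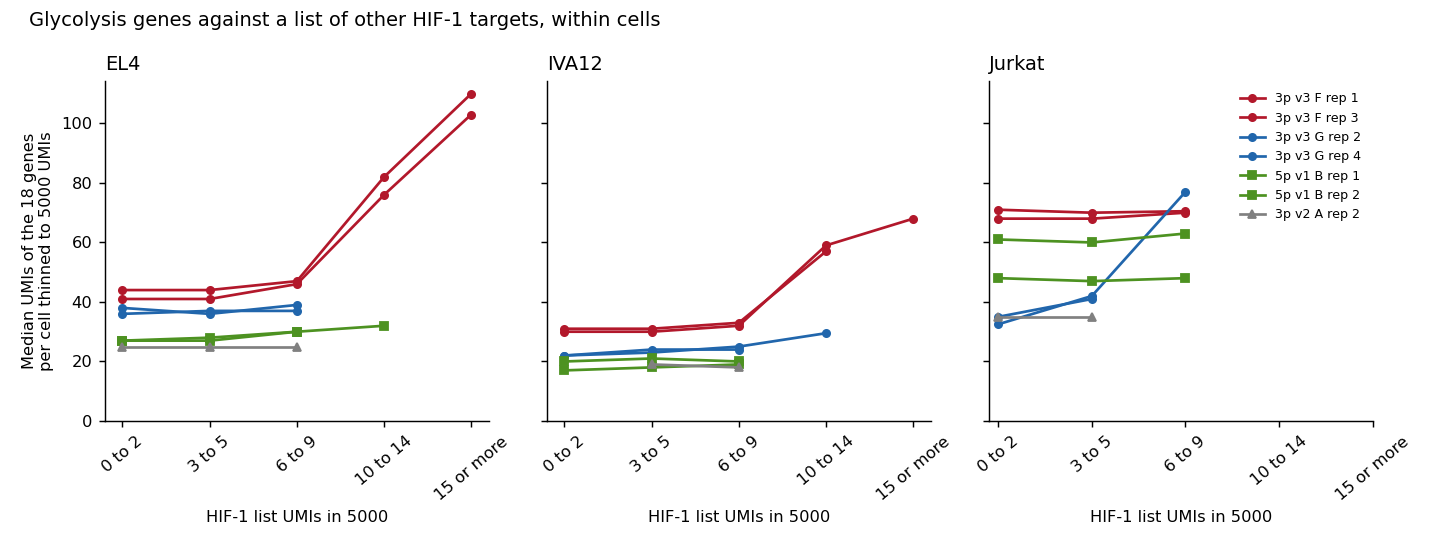
Median UMIs of the 18 glycolysis genes per cell against the UMIs of the list of other HIF-1 targets, both in 5000 UMIs, 1 line per library and groups of at least 20 cells. In EL4 of preparation F the median is nearly flat up to 9 UMIs of the list and reaches 82 and 76 at 10 to 14, IVA12 of F reaches 57 and 59 there, and of the other libraries only EL4 of 5p v1 replicate 1 (32) and IVA12 of G replicate 4 (29.5) have a group at that level.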

How the data were processed

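The deposited matrices held UMI counts, not normalized, for each gene in each barcode. Before deposit, the authors subsampled reads with seqtk, aligned and counted them with Cell Ranger 3.0.2 (per the labels, with reference 1.2.0 of hg19 and mm10, human and mouse combined) and deposited all barcodes. Depth per cell was therefore partly levelled and still differed between lines. Cells and lines were taken from these counts as the report describes, a mouse cell being EL4 where Lgals1, S100a6 and Perp had at least 5 times the UMIs of Epcam, Cd24a, Ctss and Ckap4, and IVA12 for the reverse. A human cell was TALL-104 where NKG7, CST7 and CD8A held at least 0.1% of UMIs and Jurkat below 0.02%. Barcodes between these limits were left out, doublets within a species were not called otherwise, and line names were rebuilt here.

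UMIs were summed per library and line and tested with edgeR 4.0.16 (R 4.3.3; TMM scaling, filterByExpr, quasi-likelihood F test) over all genes of the species, with Benjamini-Hochberg adjustment. Sums, not cells, were the replicates. Line comparisons had the library as a block, since both lines of a library share 1 droplet run. Values are log2 fold changes ± SE. The models were tested on simulated data.

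Free RNA was estimated per gene as the mean UMIs per cell in cells of the other species. The alternatives were no TMM scaling, DESeq2 1.42.0, no count filter, minimums of 2000 UMIs, mitochondrial limits of 5% and 20%, a species share of 95%, a stricter line rule, free RNA subtracted, cells thinned to 1000 UMIs, single preparations or kits, and each library left out. Chosen after the data were seen were leaving out cells over 130000 UMIs (6 EL4 cells of 3p v3 replicate 4) or TALL-104 cells over 5000, and the restrictions by depth and HIF-1 targets. The 18 genes of each species and all lists were chosen with earlier results of these data known. Every gene of the route was described, and of other lists at most 3 genes per comparison, those with the largest change among genes called with at least 1.5-fold. Replicate 1 of 3p v2 was not analysed here. Values of some genes of the marker and pathway lists are not reported here.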

Additional observations from a re-analysis of the deposited data

Results flagged for a closer look

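In the 4 libraries of the 3p v3 kit, 98 groups of values were examined. They were levels of single genes, summed levels, and shares of cells rich in HIF-1 targets, each within 1 line. In 4 groups, all of single genes, 1 library had a gap to the nearest other one that exceeded Dixon's 95% critical value, relative to the range. Chance alone gives such a gap in about 1 in 20 groups of exchangeable libraries. These groups hold 2 libraries from each of 2 preparations between which many of the genes differed, so that rate does not apply to them. In IVA12, Pgk1 was 83.4 CPM in replicate 3, of preparation F, and 42.6 to 44.7 CPM in the other libraries. In TALL-104, SLC2A1 was 60.4 CPM in replicate 2 and 29.0 to 33.7 CPM in the other libraries, and SLC16A3 was 53.7 CPM there and 25.1 to 29.8 CPM in the others. PFKP was 50.5 CPM in TALL-104 of replicate 4 and 60.8 to 62.7 CPM in the others. The TALL-104 sums of replicates 2 and 4 came from 153 and 293 cells.

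The effect of preparation, as log2 fold change of G over F, differed between EL4 and IVA12 by the test of the interaction for 9 genes. The difference, EL4 minus IVA12, was -1.02 for Slc2a1, -0.98 for Hk2, -0.54 for Pfkl, -0.24 for Pfkp, 0.19 for Gapdh, -0.55 for Pgk1, -0.53 for Pgam1, -0.26 for Ldha and -0.40 for Slc16a3. Leaving out replicate 1, 2, 3 or 4 leaves 1 library in a preparation, and the Gapdh difference was then 0.08, 0.14, 0.16 or 0.24. That of Ldha was -0.27, -0.31 or -0.24 without replicate 2, 3 or 4. Between Jurkat and TALL-104 the effect of preparation differed for 6 genes. The difference, Jurkat minus TALL-104, was 1.17 for SLC2A3, 0.37 for ALDOA, -0.62 for TPI1, 0.30 for PGK1, -0.30 for ENO1 and -0.33 for PKM. Without replicate 1, 2, 3 or 4 the PGK1 difference was 0.22, 0.27, 0.22 or 0.31, and that of ALDOA was 0.27 or 0.23 without replicate 2 or 3.

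The effect of kit, as log2 fold change of 3p v3 over 5p v1, differed between EL4 and IVA12 for 12 genes. The difference, EL4 minus IVA12, was -1.15 for Slc2a3, 0.41 for Hk1, -1.0 for Gpi1, 0.82 for Pfkl, 0.60 for Pfkp, 0.42 for Aldoa, 0.76 for Tpi1, 0.32 for Gapdh, 0.92 for Eno1, 1.26 for Pkm, 0.99 for Ldha and 1.27 for Slc16a3. Each of the 27 differences listed as called passed an adjusted p under 0.05 in edgeR with all libraries of its comparison. For the kit effect, the Hk1 call was lost without any 1 of the 3p v3 libraries (0.36 to 0.44). The Gapdh call was lost without 3p v3 replicate 2, 3 or 4 (0.29 to 0.31). Without 5p v1 replicate 1 or 2 the Hk1 difference was 0.24 or 0.51.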

How the results depend on the processing

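Of the values of single genes under an alternative, 4070 stayed on their side of the threshold, 271 lost the call, 136 gained one and 12 turned. A value counted as turned where its sign changed and it was called as reported or under the alternative. Changes of sign without a call in either are among the 4070. The cause of these changes was not tested. For most of the fits below the share of all genes called is not given, so a changed count shows nothing particular to these genes. Counts of genes called that moved by more than 1.5 times are as follows. Between EL4 and IVA12 the fit without the replicate block, which otherwise pairs the lines of a library, called 7 of 15. For preparation G against F, a mitochondrial limit of 5% left 9 of 14 calls in EL4 and 7 of 15 in Jurkat. In TALL-104 the 8 calls became 0 with cells over 95% of 1 species and 3 with free RNA subtracted, and 5 to 9 when 1 library was left out. A replicate block on the targeted number of cells changed no count of the preparation comparisons by that much. For 3p v3 against 5p v1, leaving out 1 library gave 1 to 12 calls in EL4 (13 with all), 0 to 4 in IVA12 (5 with all), 0 to 1 in Jurkat and 0 to 1 in TALL-104 (0 with all in both). In IVA12 DESeq2 called 9, cells thinned to 1000 UMIs 1, and preparation F or G of 3p v3 alone 16 each. In Jurkat, no TMM scaling gave 3, DESeq2 3, thinned cells 1, and F or G alone 13 each. In TALL-104, subtraction of free RNA gave 1, F alone 2 and G alone 7. For the difference of preparation effects, EL4 minus IVA12 (9), a 5% mitochondrial limit gave 0 calls by edgeR, thinned cells 1 and leaving out 1 library 4 to 10. For Jurkat minus TALL-104 (6), DESeq2 gave 2, cells over 95% of 1 species 0, a stricter line rule 3, free RNA subtracted 2, thinned cells 2 and leaving out 1 library 2 to 5. For the difference of kit effects, EL4 minus IVA12 (12), a 5% limit gave 7, thinned cells 5 and leaving out 1 library 7 to 12. For Jurkat minus TALL-104 (0), no TMM scaling, DESeq2 and a 20% mitochondrial limit gave 1 each and leaving out 1 library 0 to 1. The values that turned were Tpi1 at -0.0934 and Ldha at -0.33 in 5p v1 alone (EL4 against IVA12), and, for G against F, Hk2 of EL4 at 0.42 without 3p v3 replicate 3 (-0.54 without replicate 1), Pfkp of IVA12 at 0.0888 without TMM scaling, Slc2a3 of IVA12 at -0.13 in thinned cells and PGAM1 of TALL-104 at 0.25 with free RNA subtracted. For the kits, Slc2a3 of EL4 was at -0.40 with F alone, Gpi1 and Aldoa of IVA12 at -0.28 and -0.45 and HK2 of Jurkat at 0.61 with G alone. For the differences of preparation effects, Pfkl was at 0.11 in thinned cells and PGK1 at -0.0077 with cells over 95% of 1 species. Comparisons with TALL-104 were not run at a 5% mitochondrial limit, since too few UMIs were left in a sum. In simulated counts, edgeR recovered 90% of 1.5-fold and 98% of 2-fold changes between EL4 and IVA12, 43% and 77% between Jurkat and TALL-104, 20% and 72% between preparations in EL4, 37% and 89% between kits in EL4, and 0% and 19% for the difference of preparation effects, EL4 minus IVA12. Smaller changes were thus recovered less often in the simulation, and least often for that difference. The simulated counts had 1 common dispersion for all genes and, apart from the set changes, no difference between lines, preparations or kits. Genes with low counts were not among those changed. The spread of the real data was not matched, so the rates do not describe the tests above.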
